A study of Homo sapiens with 9 samples.

Results

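ATP-dependent chromatin remodelers were examined by complex in RNA-seq of DU145 cells, a human prostate cancer line, after knockdown of *FZD6*, a Frizzled receptor for Wnt ligands. The members were 42 genes taken from the subunit lists of the SWI/SNF (17 genes), ISWI (8), CHD/NuRD (10) and INO80/SRCAP (5) families plus *ATRX* and *HELLS*, ATPases of the same superfamily outside these complexes. They were chosen by name, of 27860 genes summed and 12509 genes tested, and all 42 passed the filter on low values. Of the 42, 17 encode ATPase motors and 25 were counted as accessory subunits. The helicases *RUVBL1* and *RUVBL2*, ATPases that are not the motor of their complexes, were counted as accessory. The 9 libraries were 3 of cells with a scrambled shRNA, 3 with *FZD6* shRNA1 and 3 with *FZD6* shRNA2, all of the DU145 line with wild-type genotype in the labels and all carrying an shRNA. Per the study's methods the hairpins sat in lentiviral vectors for constitutive or doxycycline-driven expression. The labels call each group a triplicate, and no source used here says that the 3 libraries came from separate cultures, so the p-values below measure the spread between these libraries, which may be technical.

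Chromatin remodelers use the energy of ATP to slide, evict or exchange the histones that package DNA, and so set how open a promoter or an enhancer is. Each complex is built on a motor subunit with a helicase-like ATPase domain, surrounded by accessory subunits that read histone marks, bind DNA or hold the complex together. SWI/SNF mainly opens chromatin, ISWI spaces nucleosomes evenly, NuRD couples remodeling to histone deacetylation, and INO80 and SRCAP handle the histone variant H2A.Z. In prostate and other epithelial cancers SWI/SNF subunits such as ARID1A are recurrent targets of mutation.

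Values are FPKM, the fragments of a transcript scaled to its length in kilobases and to the mapped fragments of the library, summed over the RefSeq entries of a gene. Changes are log2 fold changes on the log2(FPKM + 1) scale, which understates the change of low genes, and a gene was called when its Benjamini-Hochberg adjusted p by limma over all genes tested was under 0.05. *FZD6* itself was at 20.9, 20.5 and 20.04 FPKM in the scramble libraries, 9.47, 10.2 and 9.80 with shRNA1 and 7.84, 8.79 and 7.69 with shRNA2, so every knockdown library lay below every scramble library (two-sided exact permutation p = 0.0238, the smallest this design allows). The epithelial keratins *KRT8*, *KRT18* and *KRT19* stood at 151.5 to 296 FPKM, the prostate luminal genes *KLK3*, *KLK2* and *TMPRSS2* at or below 0.0476 FPKM, and *PTPRC* and *CD3E* of blood cells at 0 in every library. *CD68*, a macrophage-associated gene, was at 16.9 to 25.7 FPKM. In bulk RNA, fewer cells of a type and less RNA per cell cannot be told apart. The depth implied by the Cufflinks bounds was 33.1 to 41.4 M fragments per library. shRNA2 replicate 2 stood apart from the other knockdown libraries in its long transcripts. Genes of 8000 bases or more had a median log2 difference from the scramble mean of -0.01 there, against -0.20 to -0.13 in the other 5 knockdown libraries. Counts are therefore given with and without it. Since it was set apart by its long transcripts, higher counts of lower calls among long members without it are no separate support.

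The promoter windows of *RUVBL2* and *EP400* are shown because these members stood at either end of the called changes among the genes whose window sits at the start of their leading transcript. Each run holds the 250 bases before the transcription start, 5′ to 3′ on the plus strand of GRCh38.p14 in RefSeq, and capitals mark a match to 1 of the motifs searched. *RUVBL2* (chr19:48993637-48993886) rose with knockdown and *EP400* (chr12:131949692-131949941) fell.
RUVBL2: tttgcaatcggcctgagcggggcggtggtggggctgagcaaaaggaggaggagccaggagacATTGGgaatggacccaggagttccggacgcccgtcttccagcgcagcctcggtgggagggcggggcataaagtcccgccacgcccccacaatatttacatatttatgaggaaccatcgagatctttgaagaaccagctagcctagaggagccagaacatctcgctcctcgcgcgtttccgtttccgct
EP400: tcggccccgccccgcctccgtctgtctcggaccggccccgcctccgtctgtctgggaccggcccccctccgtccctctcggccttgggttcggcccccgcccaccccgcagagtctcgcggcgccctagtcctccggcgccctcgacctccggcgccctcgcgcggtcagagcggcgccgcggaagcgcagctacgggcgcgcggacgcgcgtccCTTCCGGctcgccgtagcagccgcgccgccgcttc
The capitals in *RUVBL2* are the reverse complement of CCAAT, and those in *EP400* the reverse complement of CCGGAAG. The *RUVBL2* run is 58.8% G and C with 18 CG pairs, and the *EP400* run is 79.2% G and C with 44 CG pairs.

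In scramble cells the members covered a wide range of levels per length. *RUVBL2* was highest at 114 ± 1.87 FPKM (SD, n = 3) and *BAZ2B* lowest at 1.65 ± 0.106 FPKM (SD, n = 3). The 17 ATPases summed to 264 ± 7.05 FPKM and the 25 accessory genes to 844 ± 5.503 FPKM (SD, n = 3). Among the ATPases, *CHD4* at 46.7, *SMARCA5* at 43.1, *CHD8* at 30.9 and *CHD3* at 29.9 FPKM led, whereas *SMARCA4* at 2.94 and *CHD7* at 3.003 FPKM were lowest. The ranges of *CHD8* and *CHD3* overlapped in scramble libraries, as did those of *SMARCA4* and *CHD7*. The SWI/SNF motors lay below the scaffolds that hold the complex together. *SMARCA2* stood at 8.01, 8.33 and 8.18 FPKM and *SMARCA4* at 2.72, 3.27 and 2.84 FPKM in the 3 scramble libraries, while the scaffolds *SMARCC2* and *SMARCC1* averaged 44.2 and 31.4 FPKM. *SMARCA4* made up 26.4% ± 1.54 of the *SMARCA4* and *SMARCA2* sum (SD, n = 3). Its 9 listed transcripts divide the reads among themselves, and the bounds of its leading entry reached 127% of the value either side, against at most 19.7% for the other members. Among the INO80/SRCAP genes, the paired helicases *RUVBL1* and *RUVBL2* averaged 50.3 and 114 FPKM and the motors *SRCAP*, *EP400* and *INO80* 14.2, 11.6 and 9.64 FPKM. *SMARCB1* is listed again on an alternate contig of chromosome 22 with the same values, so its summed level counts it again. On the primary chromosome alone it was at 7.97 ± 0.276 FPKM in scramble cells (SD, n = 3).

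**Figure D1:**
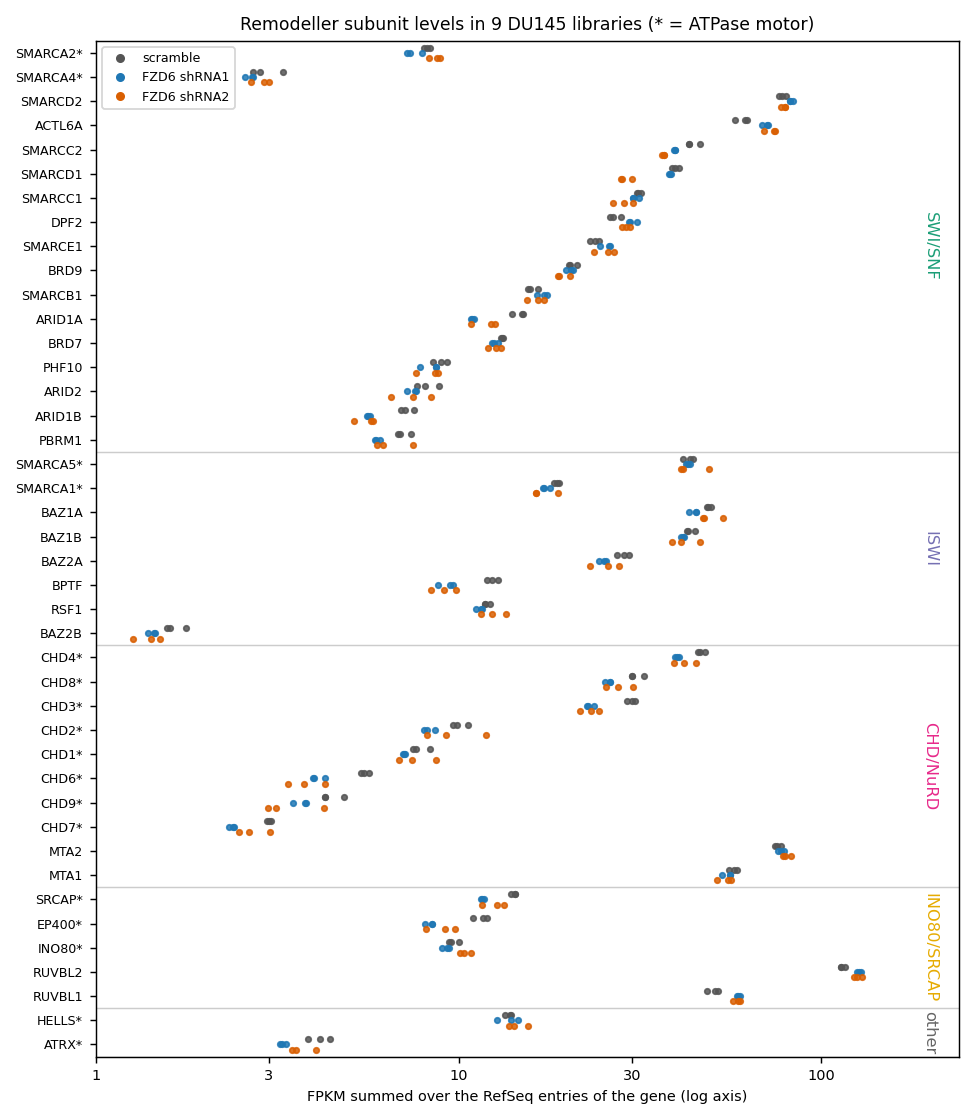
Each point is 1 library: FPKM summed over the RefSeq entries of a gene, on a log axis, for the 42 members grouped by complex, with ATPase motors starred. Gray is scramble, blue FZD6 shRNA1 and orange FZD6 shRNA2; RUVBL2 sits highest at 113 to 129 FPKM and BAZ2B lowest, below 2 FPKM in all 9 libraries.

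More remodeler transcripts fell than rose with knockdown. Comparing the 6 knockdown libraries with the 3 scramble libraries, 12 of 42 members fell, 4 rose and 26 did not pass the test by limma. Of all 12509 genes, 7.1% were called lower and 13.5% higher. The genes that fell were *ARID1A*, *ARID1B* and *SMARCC2* of SWI/SNF, *BPTF* and *BAZ2B* of ISWI, *CHD3*, *CHD4*, *CHD6* and *CHD8* of the CHD family, *SRCAP* and *EP400* of INO80/SRCAP, and *ATRX*. The genes that rose were *DPF2*, *ACTL6A*, *RUVBL1* and *RUVBL2*. The changes were small: 6 of the 16 called members reached 1.2-fold, *ARID1A*, *ARID1B*, *BPTF*, *CHD3*, *CHD6* and *EP400*, all of them lower. Every knockdown library lay below every scramble library for 13 members, where 9.46% of all genes did so, and above for 4 members, where 16.4% of all genes did so. *CHD8* and *ATRX* were called although their groups overlapped in 1 library, and *SMARCD1*, *CHD9* and *BRD7* were separated without being called. The median log2 fold change was -0.08 over the 42 members and 0.03 over all genes. Without shRNA2 replicate 2, the same 12 members were called lower together with 7 more, 19 in all, and the same 4 higher, where 9.82% of all genes were called lower and 16.2% higher. Without scramble replicate 1 the count of lower calls was 7, and without scramble replicate 2 it was also 7, where 3.42% and 2.9% of all genes were called lower.

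By role, lower calls were spread over both classes and higher calls were among genes counted as accessory. The higher calls include the helicases *RUVBL1* and *RUVBL2*, so the split by role depends on counting these as accessory. Of 17 ATPase motors, 7 fell and 0 rose at an adjusted p under 0.05 by limma, and 10 passed an unadjusted p under 0.05, as did 35.4% of all genes. Of 25 accessory genes, 5 fell and 4 rose. Of all genes, 7.1% were called lower and 13.5% higher, so the higher calls among accessory genes were near the share of all genes. Without shRNA2 replicate 2, 12 ATPases and 7 accessory genes were called lower, and 0 and 4 higher. In that run 9.82% of all genes were called lower and 16.2% higher. ATPases had a median log2 fold change of -0.18 and accessory genes of -0.06, and no test was made of the difference. As a sum, ATPase transcripts averaged 264 FPKM in scramble libraries and 237 ± 14.0 FPKM in knockdown libraries (SD, n = 6), a difference of -10.5%, while the accessory sum averaged 844 and 851 ± 7.69 FPKM. These sums weigh abundant genes most. In shRNA2 replicate 2 the ATPase sum was 265 FPKM, inside the scramble range of 260.1 to 273 FPKM, and in the other 5 knockdown libraries it lay between 227 and 236. The members' own lengths differ between these classes, with a median transcript of 7592 bases for ATPases and 4429 for accessory genes, and this is taken up further on.

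**Figure D2:**
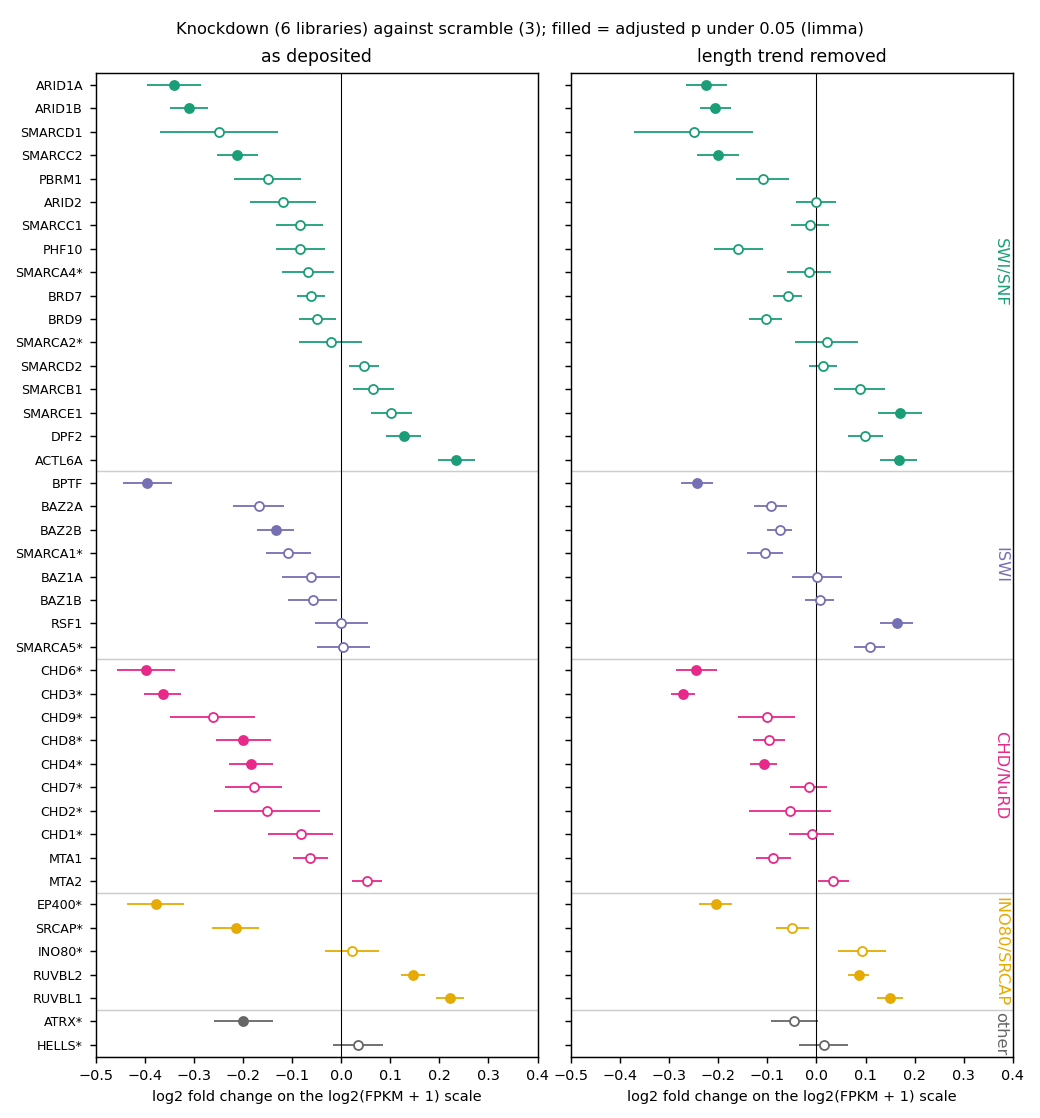
Log2 fold change of each of the 42 members, 6 knockdown libraries against 3 scramble libraries, with bars of 1 standard error, grouped by complex (color) and sorted by change within each. Filled points passed an adjusted p of 0.05 by limma, 16 on the left with the values as deposited and 13 on the right after the trend in transcript length was removed; stars mark ATPases.

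In SWI/SNF, 3 of 17 genes fell and 2 rose, where 7.1% of all genes were called lower and 13.5% higher. The family's median log2 fold change was -0.07. *ARID1A* and *ARID1B* are alternative DNA-binding subunits of canonical BAF, and a BAF complex holds one or the other. *ARID1A* stood at 15.1, 14.9 and 14.1 FPKM in the scramble libraries, 11.03, 10.9 and 10.8 with shRNA1 and 12.3, 12.6 and 10.8 with shRNA2 (gene at chr1:26696015-26782104). *ARID1B* stood at 7.11, 7.54 and 6.93 FPKM in the scramble libraries, 5.61, 5.64 and 5.69 with shRNA1 and 5.801, 5.73 and 5.15 with shRNA2 (chr6:156776026-157210779). Neither gene's knockdown libraries reached its scramble range. *ARID1A* fell by 22.3% (log2 fold change -0.34, SE 0.06, adjusted p = 0.00572, limma) and *ARID1B* by 22.1% (log2 fold change -0.31, SE 0.04, adjusted p = 0.00266), to 11.4 ± 0.805 FPKM (SD, n = 6) and 5.603 ± 0.233 FPKM (SD, n = 6). *SMARCC2* stood at 46.2, 43.2 and 43.05 FPKM in the scramble libraries, 39.5, 39.6 and 39.3 with shRNA1 and 36.8, 36.7 and 36.3 with shRNA2 (chr12:56162359-56189483). *SMARCC2*, a scaffold of the complex core, was lower in all 6 knockdown libraries, with the shRNA2 libraries below the shRNA1 libraries (log2 fold change -0.21, SE 0.04, adjusted p = 0.0104, limma). Its paralog *SMARCC1* did not pass the test (log2 fold change -0.08, adjusted p = 0.246).

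The SWI/SNF genes that rose, *ACTL6A* at 1867 bases and *DPF2* at 2799, were shorter than the SWI/SNF median of 4429 bases. *ACTL6A* stood at 57.9, 61.5 and 62.5 FPKM in the scramble libraries, 68.8, 70.8 and 71.4 with shRNA1 and 69.3, 74.2 and 74.5 with shRNA2 (chr3:179562926-179588407). *ACTL6A*, the actin-like subunit that SWI/SNF shares with the INO80 complex and the EP400 complex, was higher in every knockdown library, by 17.9% on average (log2 fold change 0.23, SE 0.04, adjusted p = 0.00529, limma). *DPF2* stood at 28.1, 26.7 and 26.1 FPKM in the scramble libraries, 29.5, 29.6 and 31.1 with shRNA1 and 29.7, 28.2 and 28.9 with shRNA2 (chr11:65333852-65354262). *DPF2*, a histone-reading finger protein of canonical BAF, was separated from scramble by a narrow gap, with the lowest knockdown library at 28.2 and the highest scramble library at 28.1 FPKM (log2 fold change 0.13, SE 0.04, adjusted p = 0.0372, limma). Leaving out any of 6 single libraries lost this call (adjusted p up to 0.134). The motors *SMARCA4* and *SMARCA2* had log2 fold changes of -0.07 and -0.02 and were not called. Of the PBAF subunits, *PBRM1* (-0.15), *ARID2* (-0.12), *PHF10* (-0.08) and *BRD7* (-0.06) all had values below 0 and none was called. Nor were *BRD9* of non-canonical BAF (-0.05) and the shared subunits *SMARCB1* (0.07), *SMARCE1* (0.10) and *SMARCD2* (0.05). Without shRNA2 replicate 2, *PBRM1* was called lower (log2 fold change -0.20, adjusted p = 0.00528 by limma).

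Of the 8 ISWI genes, 2 fell and 0 rose by limma, where 7.1% and 13.5% of all genes did. An unadjusted p under 0.05 was found for 4 of the 8, a level that 35.4% of all genes reached. *BPTF*, the large subunit of NURF that reads methylated histone H3, showed the largest change of the family. *BPTF* stood at 12.4, 12.8 and 12.01 FPKM in the scramble libraries, 9.67, 9.47 and 8.802 with shRNA1 and 9.13, 9.86 and 8.37 with shRNA2 (chr17:67825503-67984378). The 6 knockdown libraries ranged from 8.37 to 9.86 FPKM, below the lowest scramble library, a mean fall of 25.8% (log2 fold change -0.39, SE 0.05, adjusted p = 0.00266, limma). *BAZ2B*, a bromodomain partner of the ISWI motors, was near the floor of the filter. *BAZ2B* stood at 1.604, 1.77 and 1.57 FPKM in the scramble libraries, 1.39, 1.45 and 1.46 with shRNA1 and 1.42, 1.5002 and 1.27 with shRNA2 (chr2:159315312-159712442). It passed the test narrowly (log2 fold change -0.13, SE 0.04, adjusted p = 0.0390, limma) and lost the call when any of 7 single libraries was left out (adjusted p up to 0.156). The ISWI motors were not called. *SMARCA5* averaged 43.1 ± 1.45 FPKM (SD, n = 3) in scramble and 43.3 ± 2.87 FPKM (SD, n = 6) in knockdown cells, and *SMARCA1* 18.7 ± 0.355 FPKM (SD, n = 3) and 17.3 ± 0.967 FPKM (SD, n = 6). The other partners of the motors had log2 fold changes of -0.17 (*BAZ2A* of NoRC), -0.06 (*BAZ1A* of ACF), -0.06 (*BAZ1B* of WICH) and 0.00 (*RSF1* of RSF), none called. Without shRNA2 replicate 2, *BAZ2A* (-0.19, adjusted p = 0.0164) and *SMARCA1* (-0.13, adjusted p = 0.0282) were called lower by limma.

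All 8 CHD motors had log2 fold changes below 0 and 4 of 8 were called lower by limma. Of all genes from 6000 to 8000 bases 74.7% were below 0, and of longer ones 83.8%. In these 2 ranges of length, 22.3% and 32.5% of all genes were called lower. The family's median log2 fold change with the NuRD subunits *MTA1* and *MTA2* was -0.18. *CHD3* and *CHD4* are the alternative motors of NuRD. *CHD3* stood at 30.1, 30.5 and 29.1 FPKM in the scramble libraries, 23.6, 22.7 and 22.6 with shRNA1 and 23.1, 24.4 and 21.7 with shRNA2 (chr17:7884796-7912755). *CHD4* stood at 46.4, 47.8 and 45.8 FPKM in the scramble libraries, 39.5, 40.4 and 39.95 with shRNA1 and 41.7, 45.04 and 39.2 with shRNA2 (chr12:6570082-6607379). *CHD3* was clearly separated, with scramble libraries from 29.1 FPKM and knockdown libraries up to 24.4 FPKM, whereas shRNA2 replicate 2 brought *CHD4* close to the scramble range. *CHD3* fell by 23% (log2 fold change -0.36, SE 0.04, adjusted p = 0.00138, limma) and *CHD4* by 12.2% (log2 fold change -0.18, SE 0.04, adjusted p = 0.0226). *CHD4* lost its call when any of the 3 scramble libraries was left out (adjusted p up to 0.0947 by limma). *CHD4* took a larger share of their sum, 61.0% ± 0.274 in scramble, 63.5% ± 0.762 with shRNA1 and 64.6% ± 0.304 with shRNA2 (SD, n = 3 each), and the shRNA libraries did not overlap the scramble libraries. The shares themselves were not tested.

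*CHD6* had the lowest fold change of the 42 members. *CHD6* stood at 5.47, 5.66 and 5.38 FPKM in the scramble libraries, 4.0003, 4.296 and 3.98 with shRNA1 and 3.74, 4.28 and 3.39 with shRNA2 (chr20:41402083-41618377). All 6 knockdown libraries lay below the scramble range, a mean fall of 28.3% (log2 fold change -0.40, SE 0.06, adjusted p = 0.00403, limma). *CHD8* stood at 30.1, 32.5 and 30.1 FPKM in the scramble libraries, 26.1, 26.1 and 25.4 with shRNA1 and 27.4, 30.2 and 25.5 with shRNA2 (chr14:21385199-21456123). *CHD8*, a motor that binds β-catenin and is known from neurodevelopment, overlapped scramble through shRNA2 replicate 2 and passed the test (log2 fold change -0.20, SE 0.06, adjusted p = 0.0380, limma). Its call was lost when any of 8 single libraries was left out (adjusted p up to 0.151). *CHD9* (-0.26, adjusted p = 0.0629), *CHD7* (-0.18, 0.0598), *CHD2* (-0.15, 0.353) and *CHD1* (-0.08, 0.410) were not called by limma. *CHD1* reads methylated histone H3 and is often deleted in prostate cancer. In *CHD1* and *CHD2*, 5 of 6 knockdown libraries lay below the lowest scramble library and shRNA2 replicate 2 above the highest. Without that library all 8 CHD motors were called lower, where 9.82% of all genes were. *CHD1* then stood at an adjusted p of 0.0459, *CHD2* 0.0146, *CHD7* 0.00465 and *CHD9* 0.0229 (limma). These motors are long, with a median of 7739 bases, and that library was set apart by its long transcripts. The count without it is therefore no separate support. *MTA1* and *MTA2*, the scaffolds of NuRD, had log2 fold changes of -0.06 and 0.05 and were not called with or without it.

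Among the 5 INO80/SRCAP genes, 2 of 3 motors fell and both RUVBL helicases rose. The share of all genes called lower was 7.1% and called higher 13.5%. Among all genes of 8000 bases or more, 32.5% were called lower. *EP400* and *SRCAP* are the motors of the complexes that deposit H2A.Z. *EP400* stood at 11.7, 11.995 and 10.99 FPKM in the scramble libraries, 8.43, 8.46 and 8.07 with shRNA1 and 9.17, 9.77 and 8.14 with shRNA2 (chr12:131949942-132080460). *SRCAP* stood at 14.3, 14.3 and 13.9 FPKM in the scramble libraries, 11.8, 11.6 and 11.5 with shRNA1 and 12.8, 13.3 and 11.6 with shRNA2 (chr16:30699171-30741409). In both genes the knockdown libraries stayed below the scramble range, *EP400* by 24.9% on average (log2 fold change -0.38, SE 0.06, adjusted p = 0.00482, limma) and *SRCAP* by 14.7% (log2 fold change -0.22, SE 0.05, adjusted p = 0.0173). *SRCAP* lost its call without scramble replicate 1 or 2 (adjusted p up to 0.0690 by limma). *INO80* did not pass (log2 fold change 0.02, adjusted p = 0.799). *RUVBL1* and *RUVBL2* form the ring shared by the INO80, SRCAP and EP400 complexes. *RUVBL1* stood at 51.7, 48.4 and 50.8 FPKM in the scramble libraries, 59.7, 58.8 and 58.5 with shRNA1 and 57.002, 58.9 and 59.8 with shRNA2 (chr3:128064785-128153914). *RUVBL2* stood at 116, 113 and 113 FPKM in the scramble libraries, 129, 125 and 127 with shRNA1 and 126, 123 and 129 with shRNA2 (chr19:48993448-49015995). Both were higher in every knockdown library than in any scramble library, *RUVBL1* by 16.9% (log2 fold change 0.22, SE 0.03, adjusted p = 0.00269, limma) and *RUVBL2* by 10.8% (log2 fold change 0.15, SE 0.03, adjusted p = 0.00680). The summed INO80/SRCAP level, which *RUVBL2* dominates, was 199.7 ± 3.16 FPKM in scramble and 216 ± 2.07 FPKM in knockdown libraries (SD, n = 3 and 6).

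Of the motors outside these complexes, *ATRX* fell and *HELLS* was not called. *ATRX* stood at 3.86, 4.16 and 4.42 FPKM in the scramble libraries, 3.23, 3.26 and 3.34 with shRNA1 and 3.56, 4.05 and 3.47 with shRNA2 (chrX:77504880-77786216). *ATRX*, which works with DAXX to place histone H3.3, was called lower at the edge of the threshold (log2 fold change -0.20, SE 0.06, adjusted p = 0.0477, limma), with shRNA2 replicate 2 inside the scramble range. The call was lost when any of 8 single libraries was left out (adjusted p up to 0.163). *HELLS*, a remodeler needed for DNA methylation, averaged 13.7 ± 0.275 FPKM (SD, n = 3) in scramble and 14.1 ± 0.910 FPKM (SD, n = 6) in knockdown cells and was not called (adjusted p = 0.669).

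Transcript length moved with these changes. Over the 12295 tested genes with a length, the Spearman correlation of length and log2 fold change was -0.44, and over the 42 members it was -0.66. These points share libraries, so the correlations are descriptions. The members are long, with a median of 6149 bases against 2648 for all genes tested. The 12 that fell ran from 4064 bases in *SMARCC2* to 12317 in *EP400*, and the 4 that rose from 1772 bases in *RUVBL1* to 2799 in *DPF2*. Of 10 members of 8000 bases or more, 6 were called lower, where 32.5% of all 538 genes of that length were. Of 12 members from 6000 to 8000 bases, 4 were called lower (22.3% of all genes of that length), and of 7 from 4000 to 6000 bases, 2 were (13.7%). None of the 13 shorter members was called lower and 4 were called higher. In this last range the share of all genes called higher was 22.6% below 2000 bases and 12.8% from 2000 to 4000 bases.

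**Figure D3:**
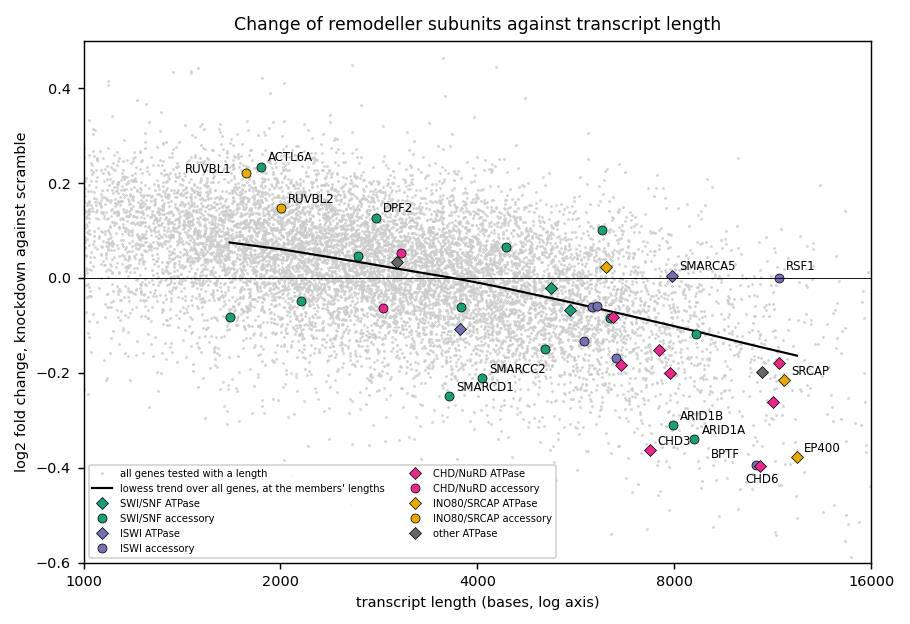
Log2 fold change of knockdown against scramble (vertical) against transcript length in bases (log axis): gray dots are tested genes within the axes, the black line is their lowess trend read at the members' lengths, and colored symbols are the 42 members (diamonds ATPases, circles accessory genes). The trend runs from 0.07 at the shortest member to -0.16 at the longest; RSF1 and SMARCA5 lie above it and BPTF, CHD6, EP400 and CHD3 below it.

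With the length trend removed from each library by lowess, 8 members were called lower and 5 higher, against 5.73% and 6.61% of all 12295 genes. *ARID1A*, *ARID1B*, *SMARCC2*, *BPTF*, *CHD3*, *CHD4*, *CHD6* and *EP400* kept their call, with log2 fold changes from -0.27 in *CHD3* (adjusted p = 0.000992 by limma) to -0.11 in *CHD4* (adjusted p = 0.0397). *BAZ2B*, *CHD8*, *SRCAP* and *ATRX* lost it. *SRCAP*, at 11754 bases, went to -0.05 (adjusted p = 0.362) by limma, and *ATRX*, at 10905 bases, to -0.04 (adjusted p = 0.567). *ACTL6A*, *RUVBL1* and *RUVBL2* stayed higher, at 0.17, 0.15 and 0.09, and *DPF2* missed the threshold at 0.10 (adjusted p = 0.0986). *SMARCE1* and *RSF1* were called higher with the trend removed and not called in the deposited values. *RSF1*, at 11550 bases the histone-binding subunit of its ISWI complex, stood at 11.8, 12.2 and 11.8 FPKM in scramble cells, 11.5, 11.2 and 11.6 with shRNA1 and 12.4, 13.5 and 11.5 with shRNA2. Its groups overlapped in the deposited values (log2 fold change 0.00) and it lay at 0.16 (adjusted p = 0.0193) with the trend removed (limma). *SMARCA5*, at 7923 bases, moved from 0.00 to 0.11 (adjusted p = 0.0612) by limma. The median over ATPases went from -0.18 to -0.05 and that over accessory genes from -0.06 to -0.01, with 4 ATPases still called lower. The leading entry of *ARID1B* has no listed length, so its 7962 bases come from a minor entry, and its corrected value rests on that. The part of length in each call was not tested beyond this correction.

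The hairpins were also compared one by one with the shared scramble libraries. With shRNA1, 12 members were called lower and 4 higher by limma, where 7.19% and 11.7% of all genes were. Without shRNA1 replicate 2 the counts were 7 and 2 (3.27% and 5% of all genes), and without shRNA1 replicate 3 also 7 and 2 (2.92% and 4.41%). With shRNA2, 10 were called lower and 3 higher, where 11.4% and 15.3% of all genes were. Without shRNA2 replicate 2 the count of lower calls with shRNA2 was 21, where 15.5% of all genes were called lower. Both hairpins gave a lower call for 8 members, *ARID1A*, *ARID1B*, *SMARCC2*, *BPTF*, *CHD3*, *CHD6*, *SRCAP* and *EP400*, and a higher call for *ACTL6A*, *RUVBL1* and *RUVBL2*. Since both comparisons use the same scramble libraries, these shared calls are not independent. *CHD4*, *CHD7*, *CHD8*, *ATRX* and *DPF2* were called with shRNA1 alone, and *SMARCD1* and *BAZ2B* with shRNA2 alone. For *CHD4* the log2 fold changes were -0.22 with shRNA1 and -0.15 with shRNA2, and their difference did not pass the test (adjusted p = 0.469 by limma).

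Directly between the hairpins, 3 members differed: 1 was lower and 2 were higher with shRNA2 by limma, where 4.79% of all genes were lower and 1.92% higher. *SMARCD1*, an adaptor subunit through which SWI/SNF meets transcription factors, gave the largest difference. *SMARCD1* stood at 40.4, 38.8 and 39.6 FPKM in the scramble libraries, 38.2, 38.1 and 38.5 with shRNA1 and 29.98, 28.2 and 28.1 with shRNA2 (chr12:50085342-50100707). The shRNA1 libraries sat just under the scramble libraries and the shRNA2 libraries far below both, at 28.8 ± 1.06 FPKM (SD, n = 3). shRNA2 against shRNA1 gave a log2 fold change of -0.40, SE 0.03, adjusted p = 0.000791 (limma), and shRNA1 against scramble -0.05 (adjusted p = 0.320). Of its 2 listed transcripts, the leading one of 3658 bases averaged 37.2, 34.0 and 26.7 FPKM in scramble, shRNA1 and shRNA2 cells. *SMARCD1* made up 33.7% ± 0.949 of the *SMARCD1* and *SMARCD2* sum in scramble, 31.7% ± 0.336 with shRNA1 and 26.8% ± 0.659 with shRNA2 (SD, n = 3 each), and these 3 sets did not overlap. *SMARCD2* itself stayed between 76.4 and 83.7 FPKM in all 9 libraries. A call for *SMARCD1* in the pooled comparison was not reached (adjusted p = 0.177), although all 6 knockdown libraries lay below the scramble range.

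The motors *SMARCA2* and *INO80* were higher with shRNA2 than with shRNA1. *SMARCA2* stood at 8.01, 8.33 and 8.18 FPKM in the scramble libraries, 7.22, 7.92 and 7.33 with shRNA1 and 8.28, 8.74 and 8.87 with shRNA2 (chr9:2015347-2193620). *INO80* stood at 9.42, 10.0004 and 9.51 FPKM in the scramble libraries, 9.02, 9.42 and 9.27 with shRNA1 and 10.4, 10.8 and 10.1 with shRNA2 (chr15:40978880-41116280). In *SMARCA2* the 3 shRNA1 libraries lay below the scramble range. In *INO80* the highest shRNA1 library all but met the lowest scramble library, at 9.41585 against 9.41626 FPKM. The shRNA2 libraries lay above the scramble range in both genes, apart from replicate 1 in *SMARCA2*. The differences were small, log2 fold change 0.18, SE 0.04, adjusted p = 0.0380 for *SMARCA2* and log2 fold change 0.16, SE 0.03, adjusted p = 0.0373 for *INO80* (limma). Neither hairpin passed the test against scramble in either gene, the nearest being *INO80* with shRNA2 (adjusted p = 0.0640). Leaving out any of 7 single libraries lost the call for *SMARCA2*, and likewise for *INO80*, with adjusted p up to 0.127 and 0.121 by limma. *FZD6* also differed between the hairpins (log2 difference -0.25, adjusted p = 0.0273 by limma), with less *FZD6* transcript under shRNA2. Over the 42 members, 36 had the same sign with both hairpins and 6 opposite signs. With shRNA1 all 17 ATPase motors had log2 fold changes below 0, *HELLS* only at -0.0004, and with shRNA2 13 of 17. Of all 12509 genes tested, 5162 and 5333 were below 0. In the pooled comparison 74.7% of all genes from 6000 to 8000 bases and 83.8% of longer ones were.

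**Figure D4:**
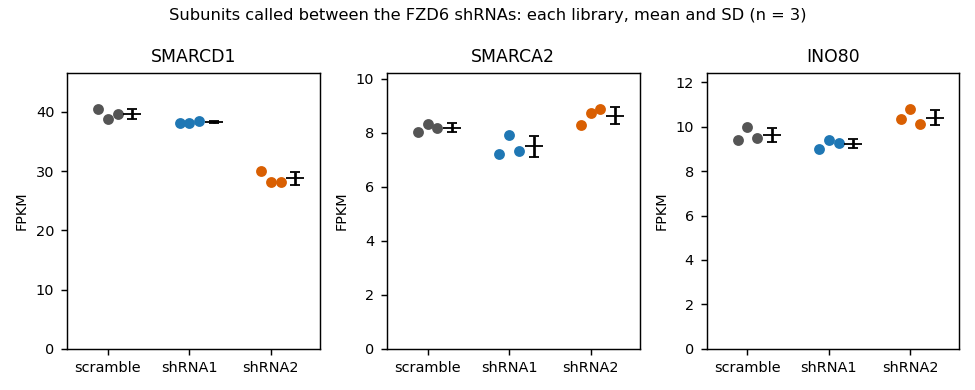
FPKM of SMARCD1, SMARCA2 and INO80 in each library (points), with the group mean and SD (n = 3) to the right of each set. SMARCD1 lies at 38.1 to 40.4 FPKM in scramble and shRNA1 cells and at 28.1 to 29.98 with shRNA2; the means of SMARCA2 and INO80 are lowest with shRNA1 and highest with shRNA2.

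A list of 52 further subunits of the same families gave 47 tested genes, of which 4 fell and 8 rose by limma, shares close to the 7.1% and 13.5% of all genes. Without shRNA2 replicate 2, 6 were called lower and 8 higher, where 9.82% and 16.2% of all genes were. The other 5 were under the filter. *TRRAP*, the large scaffold of the EP400 complex, fell from 7.58 to 5.47 FPKM (log2 fold change -0.41, adjusted p = 0.00415 by limma), and *BICRA* of non-canonical BAF fell from 4.78 to 3.79 FPKM (-0.27, adjusted p = 0.00266). *BICRAL* (-0.17) and *YY1* (-0.09), a DNA-binding factor found with the INO80 complex, also fell. *MORF4L1*, a reader of methylated histone H3, rose from 64.9 to 81.6 FPKM (0.33, adjusted p = 0.00245), and *INO80B* from 15.8 to 20.1 FPKM (0.33, adjusted p = 0.0203). *YEATS4* (0.21), *ACTR5* (0.18), *POLE3* (0.17), *VPS72* (0.16), *KAT5* (0.15) and *RBBP7* (0.09) also rose. Of the 8 genes that rose, 6 were among the 25 tested genes of INO80/SRCAP, which have a median transcript of 1940 bases. Of all genes below 2000 bases, 22.6% were called higher. With the length trend removed, *TRRAP*, *BICRA*, *MORF4L1* and *ACTR5* kept their calls, *CDK2AP1* was called lower and *RBBP4* higher. In all, 3 genes were then called lower and 3 higher, where 5.73% and 6.61% of all 12295 genes were. The median log2 fold change of the 47 genes was 0.05, and 0.01 with the length trend removed.

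The promoter windows of 33 members were searched for short motifs on both strands, over 300 bases from 250 before to 50 after the start that RefSeq lists. For 24 of the 33 the window lies within 100 bases of the start of the leading entry. CCAAT was in 11 of 33 windows (33.3%), against 35.7% of 27305 promoters of the same length. CCGGAAG, a core bound by ETS factors, was in 4 (12.1%, against 10.7% of all), those of *SMARCA2*, *CHD4*, *MTA2* and *EP400*. CACGTG was in 2 (6.1%, against 7.43%) and AAGATGGC in 2 (6.1%, against 3.03%). GCGCATGC was in 0 of 33, against 3.27% of all. Of the members that rose, *DPF2*, *RUVBL1* and *RUVBL2* have a window and all 3 hold CCAAT, and of 8 windows of members that fell, 2 hold it (*ARID1B* and *CHD8*). These matches are letters in a window, and no test was made of them. The members' windows have a median of 66.7% G and C against 58.3% for all promoters.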

How the data were processed

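Poly(A) RNA of 9 DU145 libraries was sequenced, and the authors used STAR for mapping and Cufflinks for FPKM. Versions are not given in the sources used here. The deposited FPKM tables give a value with a lower and an upper bound for each of 83497 RefSeq entries, at hg38 loci, although the methods name mm10. Counts are not part of these tables, so count models were not used. FPKM are already scaled to library size and transcript length.

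A RefSeq gene table of GRCh38.p14 paired 72645 of 73240 accessions with a gene, and FPKM were summed per gene. Of 148 entries of the members, 5 lie on alternate contigs. Genes whose mean reached 1 FPKM were fitted as log2(FPKM + 1) with limma 3.58.1 in R 4.3.3, knockdown against scramble and, in a model with 3 groups, each shRNA against scramble and shRNA2 against shRNA1, with Benjamini-Hochberg adjustment at 0.05 over all genes. Transcript lengths came from GENCODE v29 (98.3% of tested genes) as FPKM-weighted means over the entries matched there, or by gene symbol where none matched. Entries without a match did not count. The leading entries of *ARID1B*, *PBRM1*, *BAZ1B*, *SMARCA4* and *BAZ2B* had no match, so their lengths rest on other entries. A lowess curve in length (span 0.3) was subtracted in each library. Tested on simulated data for 12509 genes of the knockdown comparison, the fit called 65% of genes planted at 1.2-fold and 87% of those planted at 0.5 on the log2 scale. The simulation planted 200 genes in independent noise, with no difference between hairpins and no length shift of a library. These rates may therefore not hold for the real libraries. *FZD6* was also tested by an exact permutation test. Depth was inferred from the deposited bounds of single-entry genes, and 3 libraries per group limit the precision.

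Per-library values were given for members called in either comparison, and up to 10 further subunits were named by size of change. Promoters shown are those of the called members with the largest rise and fall among genes in the RefSeq promoter table, off chromosome 8, whose window lies within 100 bases of the start of their leading entry. That last condition was added after the data were seen. *ACTL6A* and *CHD6*, with the largest rise and fall, have no entry in that table. *RUVBL1* has a window and rose more than *RUVBL2* (log2 fold change 0.22 against 0.15), but did not meet the added condition. The members and lists were chosen with earlier results of these data known. Python 3.11.15, pandas 2.3.3 and matplotlib 3.10.9 were used for tables and figures.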

Additional observations from a re-analysis of the deposited data

Results flagged for a closer look

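In 6 knockdown libraries, a library far from the other 5 was found for 5 of 42 members, where chance gives about 1 in 20, or 2.1. Of these, 4 were in shRNA2 replicate 2: *PBRM1* at 7.501 FPKM (the others at 5.89 to 6.18), *SMARCA5* at 48.9 FPKM (41.1 to 43.4), *CHD1* at 8.66 FPKM (6.86 to 7.42) and *CHD2* at 11.9 FPKM (8.05 to 9.22), each the highest. The other was *ARID1B* in shRNA2 replicate 3, the lowest at 5.15 FPKM (5.61 to 5.80). The 6 libraries hold both hairpins.

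The effects of the hairpins differed by the test of the difference itself for *SMARCD1* (log2 difference of shRNA2 against shRNA1 -0.40), *SMARCA2* (0.18) and *INO80* (0.16), with the values of each library given above.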

How the results depend on the processing

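Of 19 followed genes (16 called with knockdown, 3 between hairpins), 7 kept their call under every alternative run: *ARID1A*, *ARID1B*, *BPTF*, *CHD3*, *CHD6*, *EP400* and, between hairpins, *SMARCD1*. Over 377 gene values under alternatives, 297 stayed on their side of the threshold, 80 missed it and 0 reversed. *DPF2*, *BAZ2B*, *CHD8* and *ATRX* missed it most often (up to adjusted p = 0.134, 0.156, 0.151 and 0.567 by limma). Leaving out 1 library at a time gave 7 to 19 members lower and 3 to 4 higher with knockdown, and 7 to 18 and 2 to 5 with shRNA1. It gave 8 to 21 and 3 to 4 with shRNA2, and 1 to 2 lower and 0 to 3 higher between hairpins. Of all 12509 genes, 363 to 1228 were then lower and 634 to 2027 higher with knockdown, and 365 to 1367 and 552 to 2171 with shRNA1. With shRNA2 these were 974 to 1939 and 1123 to 2256, and between hairpins 270 to 816 and 63 to 356. The highest counts of lower calls against scramble came without shRNA2 replicate 2. The median log2 fold change then ranged from -0.11 to -0.08 over all members, -0.09 to -0.06 in SWI/SNF, -0.12 to -0.07 in ISWI, -0.22 to -0.17 in CHD/NuRD, -0.0023 to 0.047 in INO80/SRCAP, -0.11 to -0.06 in ATRX and HELLS, -0.22 to -0.16 over ATPases and -0.09 to -0.06 over accessory genes, and that of *FZD6* from -1.15 to -1.08. By the criteria of the study (p under 0.01 before adjustment, 1.2-fold) the counts were 6 lower and 0 higher. With these cutoffs on the log2(FPKM + 1) scale, 223 of all 12509 genes were lower and 138 higher. Fewer genes passed here than in the published list, in both directions, so that list was not reproduced. With length removed, shRNA1 gave 2 higher (753 of all 12295 genes), and also 2 under quantile normalization (827 of all 12509). With length removed, shRNA2 gave 5 higher (1402 of all 12295), and shRNA2 against shRNA1 3 lower (768) and 4 higher (445). The medians then were -0.016 (SWI/SNF), -0.092 (CHD/NuRD), 0.086 (INO80/SRCAP), -0.015 (ATRX and HELLS), -0.0496 (ATPases) and -0.013 (accessory). Quantile normalization gave an accessory median of -0.11, and a filter at 5 FPKM, which leaves out members with low values, 0.034 for *HELLS* alone. In only the 6 libraries compared, 0 members were higher with shRNA2 than with shRNA1, where 63 of all 12509 genes were. The cause of these moves was not tested.

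Replicate numbers did not pair the libraries: the correlation of same-numbered libraries' deviations was -0.07 to 0.11, with 1 of 9 pairs over 0.1. With a replicate block, 13 members were lower and 3 higher with knockdown, where 838 and 1539 of all 12509 genes were. With the replicate block and length removed, 7 were lower with knockdown, 5 higher with shRNA2 and 1 higher between hairpins. Of all 12295 genes, 530, 1393 and 392 were. The medians were those with length removed: -0.016, -0.092, 0.086, -0.015, -0.0496 and -0.013.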
